A study of Drosophila melanogaster with 4 samples.

Results

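Storage proteins and carrier proteins are the main cargo that the larval fat body releases into the hemolymph, and 8 Drosophila genes for them were examined in an immunoprecipitation of messenger RNA. They were the storage hexamerin genes Lsp1alpha, Lsp1beta, Lsp1gamma and Lsp2, the fat body protein genes Fbp1 and Fbp2, and the carrier genes apolpp and Tsf1. A probe was assigned to a gene where the platform annotation gave it a single gene symbol, brought up to date through the gene identifier. By that rule 6 probes of 15744 were found, for 5 of the 8 genes among 12236 genes with a probe, and 5 of these probes had a value on all 4 arrays. Lsp1alpha, Lsp1beta and Lsp1gamma were not analysed here, so the storage hexamerins are represented by Lsp2 alone.

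The study asked which messenger RNAs are bound by B52, a splicing factor of the SR protein family, in the developing eye. Larvae of the third instar expressed a GFP fusion of B52, GFP-B52, and those of the control expressed GFP-NLS, which is directed to the nucleus. Both transgenes were driven by GMR, a driver made from a glass-dependent enhancer that is active in the developing eye. The dissected front ends of 600 larvae made up a pool, and polyadenylated RNA from precipitates with an antibody to GFP was compared on two-colour arrays. RNA of the GFP-B52 precipitate was labelled with Cy5 on the arrays called Cy5 arrays below and with Cy3 on those called Cy3 arrays, against GFP-NLS RNA in the other dye. Each of the 2 replicates was run in both orientations, hence 4 arrays. The labels give no strain, sex or genotype beyond these transgenes, and they do not say whether the replicates came from separate larvae, so the p-values rest on a spread between samples that could be technical alone.

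During the third instar, the fat body makes large amounts of hexamerins, which are secreted, circulate, and are taken back up before pupariation as an amino acid store for metamorphosis. The uptake requires Fbp1, a fat body receptor of the hexamerins that is itself related to them in sequence and is induced by ecdysone. Lipophorin, which is built from the apolipoprotein precursor apolpp, shuttles lipid between gut, fat body and other tissues including the brain, while transferrin 1, the product of Tsf1, carries iron in the hemolymph. Fbp2 encodes a fat body protein related to alcohol dehydrogenase. The dissected front ends contain fat body and hemolymph beside the eye discs, and in bulk samples of this kind fewer cells of a type and less RNA per cell cannot be told apart. Only precipitates were compared, so binding to the tagged protein and the amount of a messenger in the extract cannot be told apart either.

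The deposited values are log ratios of the 2 channels, but neither the log base nor which channel is on top is stated. The sign of the Cy5 arrays was therefore turned after centring, on the reading that every column holds the ratio of the same 2 dyes. This follows the B52 probe 13309, whose deposited values were -0.447 and -0.508 on the Cy5 arrays and 0.417 and 0.504 on the Cy3 arrays of replicates 1 and 2. The turning was chosen with these values known. Probe 13309 was picked as the only probe for B52 above 0 on all 4 turned arrays, so its own direction there is not a test of the turning. The other 4 probes for B52 changed sign between the turned arrays, with turned means of 0.13, 0.11, 0.03 and -0.33. Over all probes with 4 values, the deposited Cy5 and Cy3 arrays had a Pearson correlation of 0.608 in replicate 1 and of -0.167 in replicate 2. After turning, the 2 orientations of replicate 1 thus ran against each other across the array, and those of replicate 2 went weakly together. Positive turned values are said to lie on the B52-probe side, without it being known which of the precipitates that side favours. The values without turning, as if every column held the same ratio of the precipitates, are given further on for each probe of the storage and carrier genes and for the other genes named. Values were present for 14788 to 15394 probes per array, and the median absolute deviation of the turned values lay between 0.219 and 0.248 log units on the arrays of replicate 1 and between 0.122 and 0.132 on those of replicate 2. Intensities were not analysed here, so neither the level of any gene nor its signal over background is known, and markers of fat body could not be checked by level.

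None of the 5 probes measured on all arrays differed from 0 in limma at an adjusted p of 0.05 (0 of 5, against 0% of 13963 probes). Within that limit, Tsf1 probe 3417 and Fbp2 lay on the B52-probe side on all 4 turned arrays, at 0.16 ± 0.02 and 0.15 ± 0.03 log units (SD, n = 2 replicates). Each replicate value is the mean of its 2 orientations. The SD, here and below, therefore does not show how far the orientations differed. Fbp1 lay on the opposite side at -0.10 ± 0.09, while apolpp at -0.04 ± 0.02 and Lsp2 at 0.01 ± 0.06 lay close to 0. On the turned arrays the 2 hemolymph carriers had means of opposite sign, with Tsf1 read from probe 3417, and so did the 2 fat body proteins. The 95% intervals of apolpp and Fbp1 in limma included 0. Tsf1 probe 11984, with a value on 3 arrays, had a turned mean of 0.0055. Without turning, the means were positive for Tsf1 probe 3417 (0.06), apolpp (0.03), Fbp1 (0.03) and Fbp2 (0.10).

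**Figure D1:**
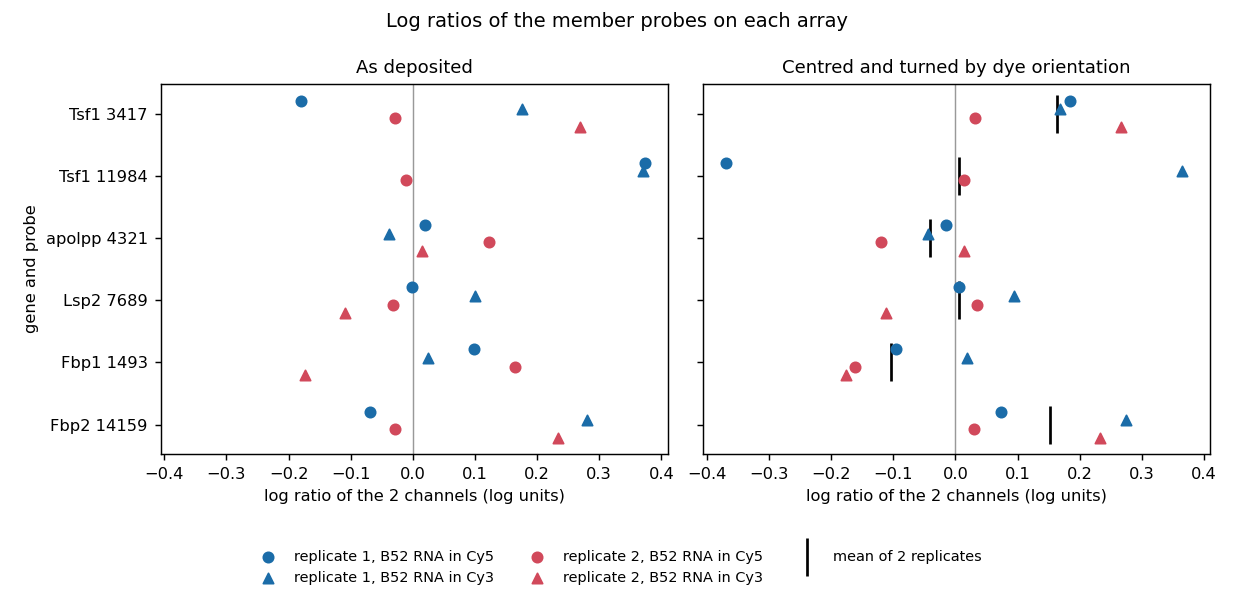
Log ratio (x axis, log units) of each probe of the storage and carrier genes on the 4 arrays, as deposited on the left and after centring and turning on the right; colours mark the replicate, circles the Cy5 arrays and triangles the Cy3 arrays, and vertical bars the mean of the 2 replicates. After turning, all 4 values of Tsf1 probe 3417 and of Fbp2 lie above 0, whereas those of apolpp, Lsp2 and Fbp1 fall on both sides of it, and Tsf1 probe 11984 has 1 high, 1 low and 1 central value.

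Transferrin 1 was measured by 2 probes. Tsf1 probe 3417 had deposited values of -0.18 and -0.029 on the Cy5 arrays of replicates 1 and 2, and of 0.175 and 0.269 on the Cy3 arrays. The sign changed with the dye orientation in both replicates, which after turning puts all 4 arrays on the B52-probe side, between 0.031 and 0.267. Its mean of 0.163 corresponds to 1.45-fold on a log10 reading, or to 1.12-fold on a log2 reading of the deposited scale. The 95% interval from limma ran from 0.04 to 0.28 log units, or from 1.10-fold to 1.92-fold if the base is 10, with an adjusted p of 0.3 over all probes (unadjusted p = 0.0187). By signed mean the probe stood at the 94.6th percentile of all probes.

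Tsf1 probe 11984 behaved differently. Its deposited values in replicate 1 were 0.373 on the Cy5 array and 0.371 on the Cy3 array, so there the sign did not change with the dye. In replicate 2 it had -0.011 on the Cy5 array and no value in the other orientation, which left it out of the test over probes with 4 values. In replicate 1 the probes of this gene differed in sign on the Cy5 array, while both were positive on the Cy3 array. The replicate 1 mean without turning was 0.367 for probe 11984 but -0.0075 for probe 3417. By size these stood at the 90.2nd and the 3.27th percentile of the 14139 probes with a value on the same 3 arrays. Over both replicates the means without turning were 0.177 for probe 11984 and 0.055 for probe 3417. The turned mean of replicate 1 was -0.002 for probe 11984 (1.79th percentile by size) and 0.176 for probe 3417 (89.9th percentile). Tested with at least 1 array per replicate, probe 11984 lay at 0.0055 ± 0.011 (SD, n = 2; adjusted p = 0.969 in limma). A gene value for Tsf1 over complete probes thus rests on probe 3417 alone, and where in the transcript either probe lies was not analysed here. The gene, CG6186, lies on chromosome X from 18387084 to 18390344 in assembly Release 6 and has 2 annotated transcripts; positions here and below are those of genes, not of probes.

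Apolpp, the second carrier, had deposited values of 0.019 and 0.122 on the Cy5 arrays and of -0.038 and 0.015 on the Cy3 arrays. After turning, 3 of its arrays lay below 0 and the Cy3 array of replicate 2 lay just above it. The mean of -0.04 had a 95% interval from -0.16 to 0.08 in limma and an adjusted p of 0.724. On a log10 reading this interval reaches from 0.69-fold to 1.20-fold, so the 2 replicates leave differences within that range open in either direction. The gene, CG11064, is the longest of the 8, with 16305 bp on chromosome 4 from 1060969 to 1077273.

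Lsp2, the measured storage hexamerin, stood nearest to 0. Its deposited values were -0.001 and -0.032 on the Cy5 arrays and 0.1 and -0.11 on the Cy3 arrays. The replicates lay on opposite sides, with turned means of 0.05 in replicate 1 and -0.04 in replicate 2. The mean of 0.01 stood at the 5.29th percentile of all probes by size, with a 95% interval from -0.13 to 0.14 and an adjusted p of 0.971 in limma. On a log10 reading the interval spans 0.75-fold to 1.37-fold, and on a log2 reading 0.92-fold to 1.10-fold. Lsp2, CG6806, lies on 3L from 12129393 to 12131869. Lsp1gamma is on the same arm from 66430 to 68995, Lsp1alpha is on X from 12490291 to 12492982 and Lsp1beta on 2L from 898500 to 901316, so the 4 hexamerin genes are not clustered.

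Fbp1, the hexamerin receptor, had deposited values of 0.099 and 0.164 on the Cy5 arrays and of 0.025 and -0.174 on the Cy3 arrays. In replicate 2 the sign changed with the dye, and both turned arrays lay between -0.176 and -0.162. In replicate 1 they were split at -0.095 and 0.019. The replicate means were -0.04 for replicate 1 and -0.17 for replicate 2, a spread of 0.09 (SD) that was wider than for 73.5% of all probes. The mean of -0.10 is 0.79-fold on a log10 reading, with a 95% interval from -0.25 to 0.04 log units, or from 0.56-fold to 1.10-fold, and an adjusted p of 0.49 in limma. Fbp1, CG17285, lies on 3L from 14094589 to 14098053.

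Fbp2 had deposited values of -0.069 and -0.028 on the Cy5 arrays and of 0.28 and 0.234 on the Cy3 arrays. Its sign thus followed the dye in both replicates, as for Tsf1 probe 3417, but the 2 Cy3 arrays stood farther from 0 than the 2 Cy5 arrays. The turned replicate means were 0.17 and 0.13. The mean of 0.152 is 1.42-fold if the base is 10 and 1.11-fold if it is 2, with a 95% interval from 0.03 to 0.27 and an adjusted p of 0.319 in limma (unadjusted p = 0.0247). Its signed mean was at the 94.0th percentile of all probes. Fbp2, CG3763, is the shortest of the 8 genes, 1134 bp on 2L from 9426784 to 9427917.

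**Figure D2:**
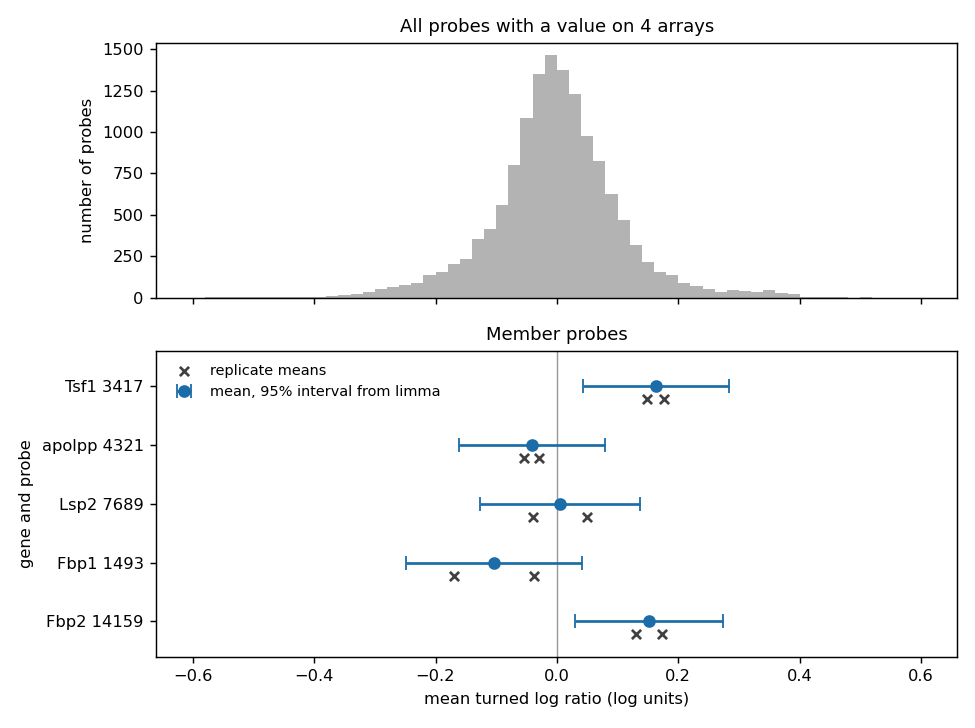
Top, number of probes by mean turned log ratio in bins of 0.02 log units, over all probes with a value on 4 arrays, drawn between -0.6 and 0.6; bottom, mean of each tested probe with its 95% interval from limma and, as crosses, the means of the 2 replicates. The intervals of Tsf1 probe 3417 and Fbp2 lie above 0 and those of the other 3 probes include 0, while no adjusted p is below 0.05.

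Set against the background of the whole array, an unadjusted p under 0.05 in limma was reached by 2 of the 5 tested probes, Tsf1 probe 3417 and Fbp2, and by 12.9% of all probes, with 5.22% of all probes on the B52-probe side. A single direction on all 4 turned arrays was kept by the same 2 of 5 probes and by 14% of all probes, with 5.96% above 0 and 8.04% below 0 throughout. With 5 probes these counts are a description and were not tested. No probe of these genes reached 0.301 log units on all 4 arrays, which is 2-fold on a log10 reading, a size met by 0.143% of all probes, and none reached 0.5 times that size (1.48% of all probes) or 2 times it (0.00716%). In a fit of the 4 arrays with a random replicate block, 0 of the 5 probes passed in limma, against 3.2% of all probes, with adjusted p values of 0.0654 for Tsf1 probe 3417 and 0.0891 for Fbp2. The median over the 5 probes was 0.01 log units, against -0.0025 over all probes.

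The 4 arrays can be split into a part that follows the comparison, a part that follows the dye, a part that differs between replicates and an interaction. The comparison took 78.7% of the sum of squares of Tsf1 probe 3417, 68.6% of that of Fbp2 and 64.3% of that of Fbp1. It took 41.2% for apolpp and 0.489% for Lsp2, and 22.6% over all probes together, where the dye pattern took 40.2%. The dye pattern was largest for Fbp2, at 0.10 log units or 30.0% of its sum of squares, while for Tsf1 probe 3417 it took 9.07%. For Lsp2 the replicate pattern of 0.06 log units was the largest of the 4.

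**Figure D3:**
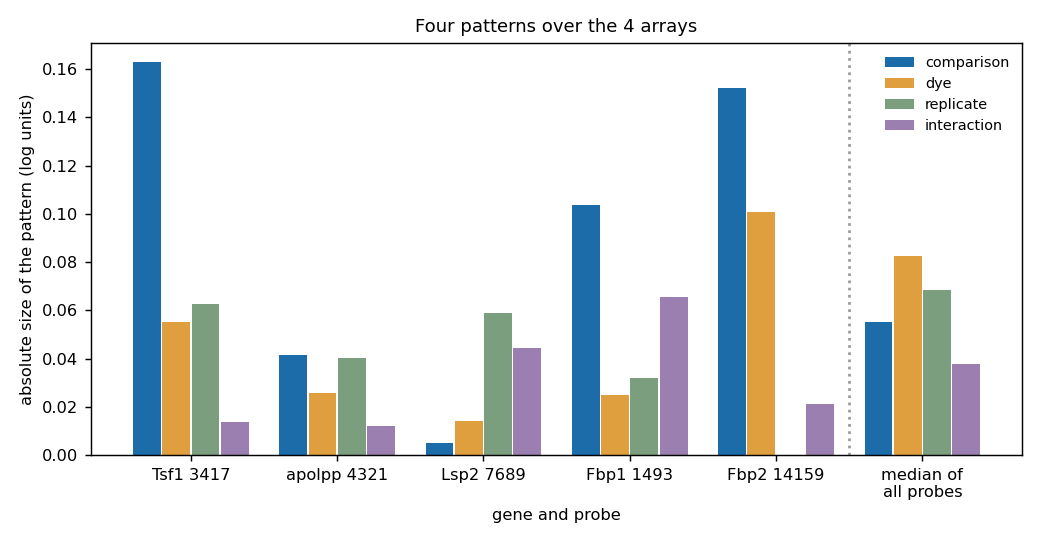
Absolute size (y axis, log units) of the comparison, dye, replicate and interaction patterns for each tested probe, with the median over all probes on the right. The comparison bar is the tallest for Tsf1 probe 3417, Fbp1, Fbp2 and, narrowly, apolpp, the replicate bar is the tallest for Lsp2, and over all probes the dye bar is the tallest.

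The part that follows the dye under this reading is the comparison itself if each deposited column held the same ratio of the precipitates. Without turning, Fbp2 lay at 0.10 (adjusted p = 0.773 in limma), Tsf1 probe 3417 at 0.06 (adjusted p = 0.906), apolpp at 0.03 (adjusted p = 0.965), Fbp1 at 0.03 (adjusted p = 0.967) and Lsp2 at -0.01 (adjusted p = 0.981). None of the 5 passed, against 0.659% of all probes. None then kept 1 direction on all 4 arrays, against 22% of all probes, and none had an unadjusted p under 0.05, against 9.94% of all probes. The signs of Fbp1, apolpp and Lsp2 were opposite under the 2 readings, while Tsf1 probe 3417 and Fbp2 were positive under both. The 2 readings are separate contrasts of the same 4 arrays, so an equal sign under both is no check of either.

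Among themselves, Fbp2 and Tsf1 had the most similar profiles over the 4 turned arrays, with a Euclidean distance of 0.157 log units. Tsf1 stands here for probe 3417 alone, as probe 11984 has a value on 3 arrays only. Of 11172 other genes, 0.636% were nearer to Fbp2 than Tsf1 was, and 1.07% were nearer to Tsf1 than Fbp2 was. The largest distances were those between Fbp1 and Tsf1, at 0.578, and between Fbp1 and Fbp2, at 0.545. Lsp2 was at 0.241 from Fbp1 and 0.242 from apolpp, and 23.9% and 24.2% of genes were nearer to it. The 5 genes whose profile was most like that of Lsp2 were CG14644, Dscam1, Cpr64Ab, CG13870 and CG15643, at distances between 0.0386 and 0.0547, against a median of 0.343 over all genes. These distances are over 4 values that share arrays and dyes, and they describe these arrays only.

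Genes that work with the carriers and storage proteins were examined on gene means. Over all 11173 genes, 1 passed at an adjusted p of 0.05 in limma (0.00895%), no member of the lists described here among them. An unadjusted p under 0.05 in limma was found for 15.7% of all genes. As shares of all genes, 6.17% had such a p with a positive mean and 9.55% with a negative mean. All 4 arrays were above 0 for 5.93% of genes and below 0 for 8.37%. The median over all genes was -0.01 log units with turning and 0.01 without it.

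The lipophorin pathway was spread around 0. Of 11 measured genes of lipid transport, 6 lay on the B52-probe side and 5 opposite, with a median of 0.0045 (0.03 without turning), and 1 on each side had an unadjusted p under 0.05. LpR2, which encodes a lipophorin receptor, lay at 0.24 ± 0.06 (SD, n = 2; adjusted p = 0.115 in limma). Its Cy5 array of replicate 1 lay at -0.157, and the other 3 lay between 0.088 and 0.562. Npc1a, a sterol transporter of late endosomes, lay at -0.12 ± 0.01 (adjusted p = 0.27 in limma), below 0 on all 4 arrays. The partners of apolpp in lipophorin assembly were Mtp, the microsomal transfer protein that lipidates it, at -0.11 ± 0.26, and Apoltp, the lipid transfer particle, at 0.01 ± 0.004, with adjusted p values in limma of 0.594 and 0.947. Without turning, LpR2 lay at 0.28 and Npc1a at 0.03, while Mtp at 0.12 and Apoltp at -0.05 changed sign as Npc1a did.

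Of 10 iron handling genes, 3 lay on the B52-probe side and 7 opposite, with a median of -0.04 with and without turning; over all genes 54.0% lay opposite. The 2 other transferrins were Tsf2 at -0.09 ± 0.02 and Tsf3 at -0.02 ± 0.04, and the ferritin subunits Fer1HCH and Fer2LCH lay at -0.07 ± 0.05 and -0.13 ± 0.12 (SD, n = 2). Without turning, Tsf2 at 0.07 and Tsf3 at 0.16 were positive, as Tsf1 probe 3417 was, and Fer1HCH and Fer2LCH lay at -0.26 and -0.11. Zip99C, an iron transporter of the secretory pathway that loads ferritin, lay at -0.13 ± 0.04 (adjusted p = 0.25 in limma; -0.15 without turning) and was the only gene of the list with an unadjusted p under 0.05. No gene of the list kept 1 direction on all 4 arrays, against 14.3% of all genes.

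Genes of fat body metabolism did not share a direction: 13 of 20 had a positive mean, and the median was 0.02 (0.04 without turning). An unadjusted p under 0.05 was reached by 1 gene with a positive and 3 with a negative mean. Pepck1, an enzyme of gluconeogenesis, lay at -0.20 ± 0.11 (adjusted p = 0.183 in limma) with all 4 arrays below 0, and the lipid droplet protein gene Lsd-2 at -0.23 ± 0.20 (adjusted p = 0.229). The fatty acid synthase gene FASN1 lay at 0.03 ± 0.03 and the triglyceride lipase gene bmm at -0.01 ± 0.08. All 4 changed sign without turning, to 0.04 for Pepck1, 0.10 for Lsd-2, -0.03 for FASN1 and 0.01 for bmm. Of 8 transcription factor genes that act in the fat body or in its ecdysone response, 3 lay on the B52-probe side and 5 opposite, with a median of -0.07 with turning and 0.05 without. They were led by br, an ecdysone-induced zinc finger gene, at -0.15 ± 0.08 and usp, which encodes the partner of the ecdysone receptor, at -0.14 ± 0.07 (adjusted p of 0.226 and 0.262 in limma). The platform has 5 probes for br, whose separate values were not examined here. The GATA factor gene srp lay at -0.11 ± 0.06. Without turning, br at 0.06, usp at 0.15 and srp at 0.03 had the opposite sign.

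Phenoloxidases, enzymes of the hemocyanin superfamily to which the hexamerins also belong, are made by blood cells. PPO2 lay at 0.23 ± 0.04 with all 4 arrays above 0 (adjusted p = 0.118 in limma), PPO1 at 0.17 ± 0.14 (adjusted p = 0.266) and PPO3 at 0.0005. PPO1 had 1 array at -0.39, the Cy5 array of replicate 1, and the other 3 between 0.218 and 0.525. Without turning, the order was another one, with PPO2 at 0.01, PPO1 at 0.25 and PPO3 at 0.19. The 3 measured genes of yolk uptake and yolk proteins, which serve the adult ovary, lay between 0.02 and 0.05, led by the yolk receptor gene yl at 0.05 ± 0.001 and Yp1 at 0.02 ± 0.08 (adjusted p of 0.65 and 0.878 in limma). Without turning their median was 0.14 in place of 0.02, with yl at 0.04 and Yp1 at 0.14.

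Markers of other tissues in the front ends were divided as well, and none passed the test; over all genes 46.0% had a positive mean with turning and 52.5% without. The 10 hemocyte markers had a median of 0.10 (0.04 without turning), 9 of them on the B52-probe side, and their gene means ranged from -0.05 to 0.31. Their leading genes were the phagocytosis receptor gene eater at 0.31 ± 0.14 and SPARC, a matrix protein gene that fat body also expresses, at 0.21 ± 0.05, against -0.08 and 0.05 without turning. The 7 muscle markers had a median of 0.13 that became -0.08 without turning, with 6 positive means against 2 without turning. They were led by Tm2 at 0.24 ± 0.07 and Mlc2 at 0.19 ± 0.03 (-0.13 and 0.02 without turning). For Tm2 the turned Cy5 and Cy3 arrays of replicate 1 were split, at 0.53 and -0.15. The 10 salivary gland markers were divided 5 to 5, from -0.54 to 0.23, with a median of 0.03. Without turning their median was -0.10, with 9 negative means and 1 positive. At the low end of the turned values were ng2 at -0.53 ± 0.33 and ng1 at -0.54 ± 0.37, against -0.065 and -0.071 without turning. Of 14 eye disc markers, 9 lay on the opposite side, with a median of -0.06 (0.06 without turning). They were led by sens at -0.20 ± 0.03 and lz at -0.22 ± 0.21 (-0.19 and 0.10 without turning). For sens the turned Cy5 and Cy3 arrays of replicate 1 were split, at 0.112 and -0.551, and for lz at -0.274 and 0.119. Of 6 neuron markers 5 lay on the opposite side, with a median of -0.03 (-0.06 without turning). Among them, futsch lay at 0.14 ± 0.24 and para at -0.05 ± 0.01 (-0.12 and -0.10 without turning). For para the turned Cy5 and Cy3 arrays of replicate 1 were split, at 0.134 and -0.243. On the turned arrays hemocyte and muscle markers lay mostly on the side of Tsf1 probe 3417 and Fbp2. Without turning 7 of 10 hemocyte markers but 2 of 7 muscle markers were positive, as Tsf1 probe 3417 and Fbp2 were. The part of tissue composition in these values was not tested.

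**Figure D4:**
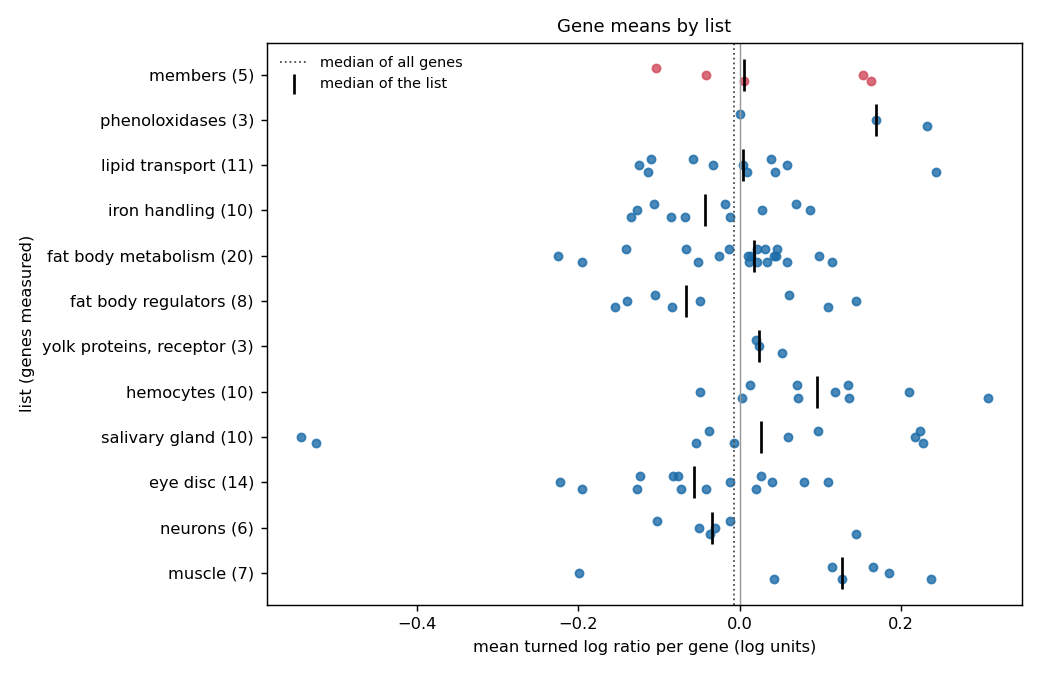
Mean turned log ratio of each measured gene (points, x axis in log units) for the storage and carrier genes (top row) and 11 other lists, with the median of each list as a vertical bar and the median of all genes as a dotted line. The storage and carrier genes reach from -0.10 to 0.16, with a median of 0.01.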

How the data were processed

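For 15744 probes the authors deposited a log ratio per array. How background and dyes were corrected, the log base and the channel on top are not stated. Column medians of 0.002 to 0.006 show that columns were centred. The 16 cells at -10000 were treated as missing, beside 350 to 955 empty cells per array. Of all probes 13147 had 1 gene symbol, 99 several and 2498 none here; 12519 took the current symbol through the gene identifier in the gene table of Release 6, and 628 kept that of the annotation.

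Arrays were centred on their medians, the Cy5 arrays were given the opposite sign, and the 2 orientations of a replicate, which hold the same extracts, were averaged. Probes with 4 values were fitted in limma 3.58.1 under R 4.3.3 (lmFit, eBayes with 3.47 prior degrees of freedom), replicate mean against 0, with Benjamini-Hochberg adjustment over all probes; genes were fitted likewise on the mean of their complete probes. The design was written for values whose base was assumed known; values are given in log units. Same-numbered arrays are paired as dye swaps of 1 replicate, per the series' design text. All alternatives were run.

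The genes, lists, turning and tests were chosen with earlier results of these data known. Named were the 8 genes and all their probes, the 2 genes with the largest absolute moderated statistic in each other list, the 5 genes nearest to the mean profile of the storage hexamerins (here Lsp2 alone), and B52 probe 13309. Mtp, Apoltp, Tsf2, Tsf3, Fer1HCH, FASN1, bmm, srp, PPO3 and pen-2 were added after their values were seen. No sequence of these genes or probes was used here.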

Additional observations from a re-analysis of the deposited data

How the results depend on the processing

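No probe of the storage and carrier genes passed the test in limma under any of the 15 alternatives. Tsf1 probe 3417 stayed positive in all of them, between 0.055 and 0.222 log units (0.163 on all arrays as turned), with adjusted p values between 0.0654 and 1; it was lowest without turning and 0.104 without the Cy3 array of replicate 2. Fbp2 also stayed positive, between 0.101 and 0.203 (adjusted p from 0.0891 to 1). The mean without turning is a separate contrast of the 4 arrays, so its sign is no check of the turned one. For both probes all 4 turned values lie above 0, so only the alternative without turning could have changed the sign. The smallest adjusted p of both came from the fit with the replicate number as a random replicate block, which estimated a within-replicate correlation of -0.664, and so smaller standard errors, and called 447 probes (3.2%), against 0 on the replicate means, where 1808 had an unadjusted p under 0.05. Without turning, 92 probes passed, and the signs of Fbp1 (0.025), apolpp (0.026) and Lsp2 (-0.014) were reversed. Lsp2 was also reversed when every array was given the same median absolute deviation (-0.0040). Leaving out each replicate or array moved Lsp2 between -0.039 and 0.0495, with -0.017 without the Cy3 array of replicate 1 and -0.031 without the Cy5 array of replicate 2. The median over the 5 probes lay between -0.039 and 0.0495, which are its values in the 2 single replicates. One probe, for pen-2, passed with robust moderation (1 probe), with genes in place of probes (1 gene), and at 2 times the size distance (1 probe), against 20 probes at 0.301 log units and 206 at 0.5 times that distance, none of them for the storage and carrier genes. In an alternative chosen after seeing the data, the probes of 1 direction numbered 2 to 4 when 1 array was left out: 4 without the Cy3 array of replicate 2, where apolpp and Lsp2 joined (17.9% of all probes), and 3 without the Cy3 array of replicate 1, where Fbp1 joined (37.5% of all probes). Without turning there were 0. The causes of these changes were not tested. The number of arrays limits the precision, and signal over background is unknown.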
